A study of Mus musculus with 2 samples.

Results

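The Slc7a11 Srxn1 Il1rn cells were 607 of the 15394 liver innate immune cells given to 1 of 4 mice. The rule took cells of the 2 mice fed CDA-HFD and no others, CDA-HFD being a high-fat diet without choline and with defined amino acids that causes steatohepatitis. Within those mice they were selected on their counts, each cell needing a count for at least 4 of 7 markers (Slc7a11, Srxn1, Il1rn, Ccl24, Clec4n, Rai14 and Ass1), at most 25% mitochondrial counts, and few or no counts for 13 further genes that mark other cells. The 13 were 7 genes of lipid-associated macrophages (Spp1, Gpnmb, Mmp12, F7, Emp1, Gdf15 and Fabp5, at most 3 with a count), Tmem119, Olfml3 and Pf4 (at most 1), and Cd5l, Cd209a and Vcan (none). The members numbered 311 of 5885 cells in a mouse with Egr2 (Egr2 fl/fl) and 296 of 6186 in one whose myeloid cells delete it.

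Several of these markers belong to the cell's handling of oxidants. Slc7a11 is the light chain of the cystine/glutamate exchanger that brings in cystine for glutathione synthesis, and Srxn1 (sulfiredoxin) repairs over-oxidised peroxiredoxins; both are known targets of the transcription factor Nrf2, which Keap1 holds in check until electrophiles or oxidants modify it. Il1rn encodes the secreted antagonist of the interleukin-1 receptor, Ccl24 an eosinophil-attracting chemokine, Clec4n the fungal pattern receptor Dectin-2, Ass1 the enzyme that rebuilds arginine from citrulline, and Rai14 an actin-associated protein. In a liver with steatohepatitis, monocytes enter from the blood and become macrophages beside, or in place of, the resident Kupffer cells.

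Single-cell RNA was measured in 4 male mice, 1 per group, on a normal diet (ND) or CDA-HFD for 7 weeks from an age of 6 to 12 weeks. On each diet 1 mouse was Egr2 fl/fl, with the Egr2 gene flanked by recombination sites, and 1 was Lyz2 Cre/+.Egr2 fl/fl, in which the Cre recombinase made from the Lyz2 locus of myeloid cells removes Egr2, a zinc-finger transcription factor; they are called the Cre-negative and the Cre-positive mouse. All cells were sorted as CD45.2+ CD11b+ and negative for CD90.2, B220, NK1.1 and SiglecF, tagged by mouse and pooled in 1 library. The kept cells had 3115 to 86395 counts, and the members had a median of 15671 counts in the Cre-negative mouse and 16384 in the Cre-positive mouse. With 1 mouse per group no difference between mice could be tested, and every interval given here is a 95% interval that covers counting error only. In each comparison of cells within a mouse the same direction was required in both CDA-HFD-fed mice. Pairs of values are given in the order Cre-negative and Cre-positive mouse. In a sum over cells, fewer cells holding a transcript and less of it per cell cannot be told apart.

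The cells carried macrophage genes less uniformly than their working name implies. At least 4 of 6 macrophage genes (C1qa, C1qb and C1qc of complement C1q, the F4/80 gene Adgre1, the Fc receptor gene Fcgr1 and the efferocytosis receptor gene Mertk) had a count in 71 of 311 members of the Cre-negative mouse, 22.8% (18.3 to 27.9), and in 79 of 296 of the Cre-positive mouse, 26.7% (21.7 to 32.1). The same test found 64.3% and 52.0% of the cells with at least 4 of the 7 lipid-associated genes, and 3.87% and 3.06% of the cells with counts for both Vcan and Ly6c2, a pair of genes of classical monocytes. With every cell thinned to 5000 counts, which left out 40 and 20 members, C1qc had a count in 30.6% and 31.2% of members and in 4.94% and 4.11% of the Vcan Ly6c2 cells. C1qa, C1qb and C1qc hold no value between 0 and 5 in the deposited table, so low counts may be missing from the shares for these genes. Without Cd5l, which the rule held at 0, the other 9 genes of the Kupffer cell list summed to 101.4 and 113 CPM (counts per 1000000 counts summed over a mouse's cells of a group) in members against 709 and 1095 CPM in other macrophages, which include Cd5l cells, and 150.1 and 228 CPM in lipid-associated cells, which do not. Clec4f stood at 1.85 and 2.70 CPM in members, from 1 cell in each mouse, and Vsig4 at 3.49 and 1.87 CPM, from 3 cells and 1 cell; the lowest values above 0 in the table are 8 for Clec4f and 5 for Vsig4, so low counts may be missing here too. Since most members held fewer than 4 of the 6 macrophage genes, the cells are called here by 3 of the 7 markers of the rule and not as macrophages. The 3 are a name only: Clec4n, with a count in 95.5% and 98.0% of members, was held by more of them than Slc7a11, Srxn1 or Il1rn.

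Other cells were present among them. A count for Ccr7, the homing receptor of mature dendritic cells, or for the neutrophil genes S100a9 or Retnlg was found in 77 members (24.8%) of the Cre-negative mouse and 44 (14.9%) of the Cre-positive mouse. These cells were shallow, with medians of 5397 and 6275.5 counts. Over the whole neutrophil list of 9 genes the summed level was 3164 and 1941 CPM in members, 290 and 495 CPM in other macrophages and 1097 and 414 CPM in Vcan Ly6c2 cells, with the granule genes Camp and Ngp listed at 0 in the members of both mice. The lowest value above 0 anywhere in the deposited table was 76 for Camp, 99 for Ngp and 22 for S100a9, so lower counts of these genes cannot be read from it and their 0 does not show absence. The dendritic cell list of 10 genes summed to 174 and 93.1 CPM in members, most of it Ccr7 at 132 and 64.7 CPM. Each comparison below was repeated without these members. The other macrophages and lipid-associated cells were left whole, so a fall in Ccr7, S100a9, Retnlg and genes held with them follows in part from the choice.

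The values that chose the members are given as a description. Slc7a11 stood at 173 CPM in the members of the Cre-negative mouse and 135 CPM in those of the Cre-positive mouse, Srxn1 at 227 and 178 CPM, and Il1rn at 746 and 509 CPM. In the other macrophages of the same mice, which were 2340 cells with at least 4 of the 6 macrophage genes and no count for Cd209a or Vcan, Slc7a11 stood at 10.4 and 6.39 CPM, Srxn1 at 55.3 and 40.6 CPM and Il1rn at 145 and 130 CPM. The levels in the lipid-associated cells lay between, with Slc7a11 at 34.7 and 34.8 CPM and Srxn1 at 119 and 113 CPM. Clec4n was the most abundant of the 7 markers in members at 880 and 1056 CPM, and Rai14 the least abundant at 41.7 and 47.5 CPM.

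The 7 markers did not come together in each cell. Of the 607 members, 384 (63.3%) held exactly 4 markers, 153 held 5, 60 held 6 and 10 held all 7, in 48 different combinations. The 3 name-giving genes all had a count in 148 members (47.6%) of the Cre-negative mouse and 80 (27.0%) of the Cre-positive mouse, and 2 members had none of the 3. Slc7a11 was without a count in 31.5% and 47.0% of the members. The commonest combination, Slc7a11 with Srxn1, Il1rn and Clec4n, was held by 90 cells (14.8%). Of the 7 lipid-associated genes 154 members held none, 189 held 1, 163 held 2 and the others 3.

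Just outside the limit lay 966 cells with 3 markers that met every other condition, 483 in each mouse. Slc7a11 in them was 171 and 86.4 CPM against 176 and 125.3 CPM in the 384 members with exactly 4 markers. Srxn1 was 69.6 and 57.4 CPM against 189 and 153 CPM, and Rai14 13.7 and 18.1 CPM against 25.6 and 35.0 CPM. Cells just outside the limit were shallower than the members, with medians of 11576 and 13260 counts.

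All of the rule's conditions on counts together were met by a larger share of cells on CDA-HFD, a contrast that the rule sets in part. It bars cells with a Cd5l count, which were 45.6% and 53.1% of the ND cells and 2.63% and 3.75% of the CDA-HFD cells of the Cre-negative and Cre-positive mice. The conditions held for 19 of 1723 ND cells of the Cre-negative mouse, 1.10% (0.665 to 1.72), and for 5 of 1590 ND cells of the Cre-positive mouse, 0.314% (0.102 to 0.732), against 5.28% (4.73 to 5.89) and 4.79% (4.27 to 5.35) on CDA-HFD. The difference between the CDA-HFD-fed mice, Cre-positive minus Cre-negative, was -0.50 percentage points (-1.29 to 0.292). With every cell thinned to 5000 counts before the conditions were applied, the shares were 3.43% (2.94 to 3.98) and 2.41% (2.01 to 2.85) on CDA-HFD and 0.517% and 0.0740% on ND, where the bar on Cd5l, applied to the thinned counts, took 49.3% and 60.5% of the cells; the difference between the CDA-HFD-fed mice was -1.02 points (-1.70 to -0.360). At least 4 of the 7 markers, with no condition on other genes, were held by 6.56% (5.44 to 7.83) and 4.78% (3.78 to 5.95) of ND cells and by 9.53% (8.79 to 10.3) and 7.94% (7.28 to 8.64) of CDA-HFD cells, and among cells without a Cd5l count by 2.88% and 0.671% on ND and 9.56% and 7.69% on CDA-HFD. Thinned, the markers alone were held by 1.42% and 0.740% of ND cells and 4.41% and 3.21% of CDA-HFD cells. Thinning left out 991 and 829 cells of the CDA-HFD-fed mice and 176 and 239 of the ND-fed mice. These shares rest on the rule and on 1 mouse each.

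**Figure D1:**
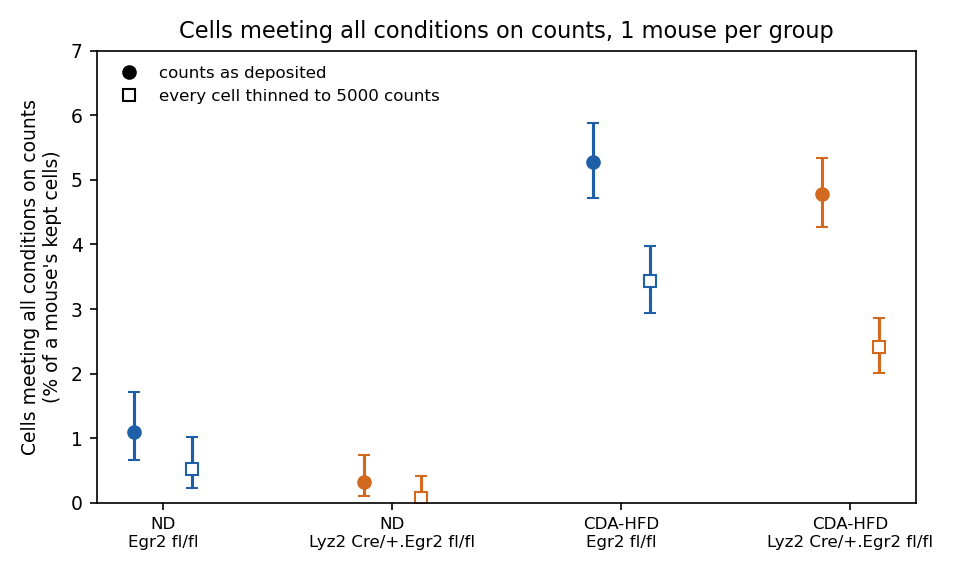
Percent of each mouse's kept cells that met all of the rule's conditions on counts (y axis), for the 4 mice (x axis), with the counts as deposited (filled circles) and with every cell thinned to 5000 counts (open squares); bars are 95% Clopper-Pearson intervals for counting error. Both CDA-HFD-fed mice lie above both ND-fed mice, at 5.28% and 4.79% against 1.10% and 0.314% as deposited; the rule bars cells with a Cd5l count, which were 45.6% and 53.1% of the ND cells.

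The markers did not all follow the diet over all cells of a mouse. Slc7a11 over all cells was 5.46 and 6.79 CPM in the ND-fed mice and 39.6 and 25.2 CPM in the CDA-HFD-fed mice, Srxn1 14.2 and 13.1 CPM against 46.9 and 37.4 CPM, and Il1rn 58.0 and 50.1 CPM against 208 and 157 CPM. Ccl24 went the other way, with 600.4 and 612 CPM on ND and 59.4 and 53.3 CPM on CDA-HFD. Clec4n was close in the 4 mice, at 178, 196, 234 and 254 CPM. A cell with Ccl24 and Clec4n thus met part of the rule on either diet.

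Members lay near each other in expression space when the 20 genes of the rule were left out. Of the 15 nearest neighbours of a member, 24.3% were members (25.9% for the Cre-negative mouse and 22.7% for the Cre-positive mouse), where members made up 5.03% of the cells compared and 3.63% of the neighbours of other cells. They did not form a closed group: the median member had 20% members among its neighbours, 81 members (13.3%) had none and 70 (11.5%) had mostly members. A further 19.9% of the neighbours were the cells just outside the limit, which were 8.0% of all cells. Lipid-associated cells were 8.94% of the neighbours and 4.52% of all cells, other macrophages 16.3% and 19.4%, Tmem119 Olfml3 Pf4 cells 4.72% and 7.23%, and Vcan Ly6c2 cells 3.96% and 6.46%. Cells that express Cd5l were 0.725% of the neighbours and 2.98% of all cells.

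The first comparison asked how the members differed from other macrophages of the same mice. Of 8133 genes with at least 500 counts, 176 (2.16%) were at least 2 times higher in members in both mice and 364 (4.48%) at least 2 times lower. Other macrophages were chosen on the 6 macrophage genes, so the lower levels of those genes in members are fixed in part by the choice. The other macrophages were deeper, with medians of 21796 and 19039.5 counts, and levels are therefore given as CPM of the summed counts. Restricting the members to those with at least 4 of the 6 macrophage genes left 61 genes higher, 48 of them shared with the 176, and 312 lower, and leaving out the members with a count for Ccr7, S100a9 or Retnlg gave 115 higher and 337 lower.

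Nrf2 pathway genes other than the markers mostly lay above 1 in members. Of the 22 compared, 6 were at least 2 times higher in both mice, none was at least 2 times lower, and 20 lay above 1 in both mice, against 2.16% of all genes past 2 times and 27.9% above 1. The list median was 0.79 and 0.69 on the log2 scale in the 2 mice, where the median of all genes was -0.12 and -0.11. Among members holding at least 4 of the 6 macrophage genes, 6 of 22 were at least 2 times higher (Txnrd1, Osgin1, Gclm, Gsr, Hmox1 and the transporter gene Abcc1) and 20 lay above 1, while Gclc (1.38 and 2.89 times) and Sqstm1 (2.26 and 1.96 times) missed 2 times in 1 mouse. The rule chose members on Slc7a11 and Srxn1, 2 genes of this list, so higher levels of genes that vary with them follow in part from the choice. The list was also chosen with earlier results of these data known, so its direction is not independent evidence.

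Txnrd1, the cytosolic thioredoxin reductase, stood at 583 CPM in members and 174 CPM in other macrophages of the Cre-negative mouse, 3.36 times higher (3.20 to 3.52), and at 437 and 139 CPM in the Cre-positive mouse, 3.15 times (2.98 to 3.32). Osgin1, an oxidative stress-induced growth inhibitor, stood at 55.8 and 52.2 CPM in members against 8.62 and 11.5 CPM, ratios of 6.47 (5.41 to 7.76) and 4.55 (3.84 to 5.39). Hmox1, the heme oxygenase that breaks heme into iron, carbon monoxide and biliverdin, stood at 921 and 826 CPM against 341 and 362 CPM, 2.70 and 2.28 times higher. For each of these 3 genes the members of both mice were above the other macrophages of both mice.

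Of the 9 cystine and glutathione genes compared, 3 were at least 2 times higher in both mice and none lower, where 2.16% of all genes were higher and 4.48% lower. In both mice 5 lay above 1, where 27.9% of all genes did, and 4 below 1. With the macrophage genes required of the members 2 of 9 were past 2 times, where 0.781% of all genes were higher. Gclc, the catalytic subunit of the rate-limiting ligase, stood at 68.8 and 69.0 CPM against 29.2 and 25.2 CPM (2.36 and 2.74 times), and its partner Gclm at 1.94 and 2.69 times, which missed 2 times in 1 mouse. Glutathione reductase, Gsr, was 2.62 and 2.87 times higher, and the autophagy receptor Sqstm1 2.58 and 2.53 times. Nqo1, a quinone reductase often used as a reporter of Nrf2, was too low to compare by the 500-count limit, with 86 counts in the members of each mouse, but stood at 17.6 and 17.8 CPM against 1.64 and 1.96 CPM. Of the genes of the pathway's control, Nfe2l2, which encodes Nrf2 itself, was 1.68 and 1.62 times higher, Keap1 1.15 and 0.843 times, and the repressor gene Bach1 1.40 and 1.48 times. The pentose phosphate genes G6pdx, Taldo1 and Tkt stayed within 1.15 to 1.42 times. In the wider glutathione list, the peroxidase genes Gpx1 (0.856 and 0.888 times) and Gpx4 (0.703 and 0.737 times) were lower than in other macrophages without reaching a 2-fold difference.

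**Figure D2:**
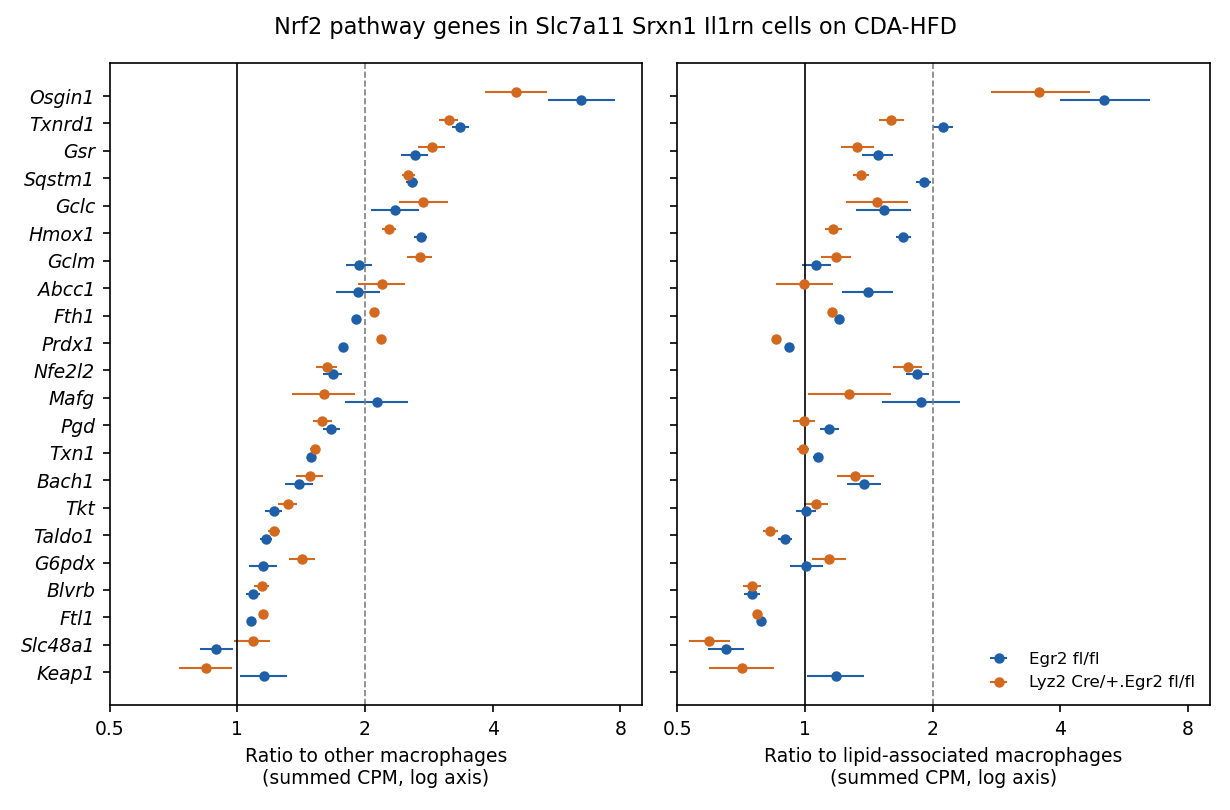
Ratio of summed CPM in Slc7a11 Srxn1 Il1rn cells to that in other macrophages (left) and lipid-associated macrophages (right) of the same CDA-HFD-fed mouse, on a log axis, for the 22 Nrf2 pathway genes compared that were not used by the rule; colours are the 2 mice, bars 95% counting intervals, and the dashed line 2 times. Osgin1 and Txnrd1 lead on the left with 6.47 and 3.36 times in the Cre-negative mouse, while most genes lie nearer 1 on the right; 324 of the 546 lipid-associated cells are also among the other macrophages.

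The upstream promoter windows of Slc7a11 and Srxn1 are shown because both genes name the cells and hold the motif that Nrf2 binds, the antioxidant response element, searched here as TGACNNNGC or TGAGNNNGC on both strands. Capitals mark this motif, GCTTTCTCA in Slc7a11 (its first base 97 bases before the start) and GCCGACTCA and TGAGTCAGC in Srxn1 (158 and 45 bases before). In Slc7a11 capitals also mark a pair of C/EBP-ATF response elements, the motif bound by Atf4, searched as TGATGNAA on both strands, with first bases 66 and 47 bases before the start. The windows are the 250 bases before the RefSeq transcript start, in GRCm38.p6, at chr3:50443614-50443863 on the minus strand and chr2:152105274-152105523 on the plus strand.
Slc7a11: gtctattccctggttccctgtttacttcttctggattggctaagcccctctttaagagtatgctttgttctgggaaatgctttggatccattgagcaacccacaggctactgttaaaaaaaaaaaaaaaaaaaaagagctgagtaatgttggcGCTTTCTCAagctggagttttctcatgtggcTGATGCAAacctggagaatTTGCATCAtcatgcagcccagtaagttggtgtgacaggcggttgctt
Srxn1: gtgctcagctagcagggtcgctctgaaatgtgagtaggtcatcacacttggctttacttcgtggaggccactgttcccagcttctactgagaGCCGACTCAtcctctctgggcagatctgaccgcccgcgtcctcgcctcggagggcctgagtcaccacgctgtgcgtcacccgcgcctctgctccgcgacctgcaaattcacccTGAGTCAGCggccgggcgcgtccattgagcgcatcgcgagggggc
The antioxidant motif was found in 11 of 27 windows of the 21 Nrf2 pathway genes that matched the RefSeq table (40.7%), in 2 of 8 windows of the 5 matched markers of the rule (25%), those of Slc7a11 and Srxn1 but none of Il1rn, Rai14 or Ass1, in 47 of 173 windows of the 140 matched genes higher in members (27.2%), and in 23.0% of the 32851 windows of all genes. The C/EBP-ATF motif was found in 3.47% of the windows of the higher genes and in 3.45% of all. A match of letters is not a bound site.

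The Atf4 stress genes, which also act on cystine and amino acid supply, gave no 2-fold difference in either direction among the 10 compared. Atf4 itself stood at 206 and 184 CPM in members against 159 and 131 CPM, and the stress factor gene Atf3, at 1180 and 1029 CPM, was 1.41 and 1.54 times other macrophages. Slc3a2, the heavy chain that pairs with Slc7a11 in the exchanger, stood at 435 and 361 CPM against 338 and 324 CPM, ratios of 1.29 and 1.11.

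The 15 genes highest in members relative to other macrophages included Slpi and Acod1. Slpi, a secreted inhibitor of leukocyte proteases, stood at 477 and 372 CPM against 27.0 and 24.98 CPM, 17.7 (16.2 to 19.3) and 14.9 (13.6 to 16.3) times. Acod1, which makes itaconate, stood at 162 and 119 CPM against 9.42 and 8.79 CPM, 17.2 and 13.5 times. The haptoglobin gene Hp was 12.1 and 8.63 times higher, the prostaglandin synthase gene Ptgs2 4.83 and 4.30 times, and the signalling genes Traf1 and Malt1 at least 3.78 times in each mouse. F10, coagulation factor X, was 6.58 and 7.11 times higher, and fibronectin, Fn1, 4.17 and 4.41 times. Mcemp1, a mast cell and monocyte membrane protein gene, and the nuclear receptor gene Nr4a3 were also among the 15 highest.

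The 15 genes were then read in subsets of the members. Within the members holding at least 4 of the 6 macrophage genes, 13 of the 15 were still at least 2 times higher than in other macrophages in both mice, Slpi at 9.22 and 6.68 times, Acod1 at 5.33 and 4.51 times and Hp at 3.04 and 4.08 times. The exceptions were S100a8, at 1.37 and 0.617 times, and Trem3, at 1.71 and 0.589 times, where all members gave 8.40 and 4.01 times for S100a8 and 4.80 and 4.72 times for Trem3. Without the members that had a count for Ccr7, S100a9 or Retnlg, S100a8 stood at 0.966 and 0.812 times and the other 14 were still past 2 times. In single members S100a8 had a median of 123 and 99.3 CPM and a highest value of 63978 and 50863 CPM, so a few cells held most of it.

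**Figure D3:**
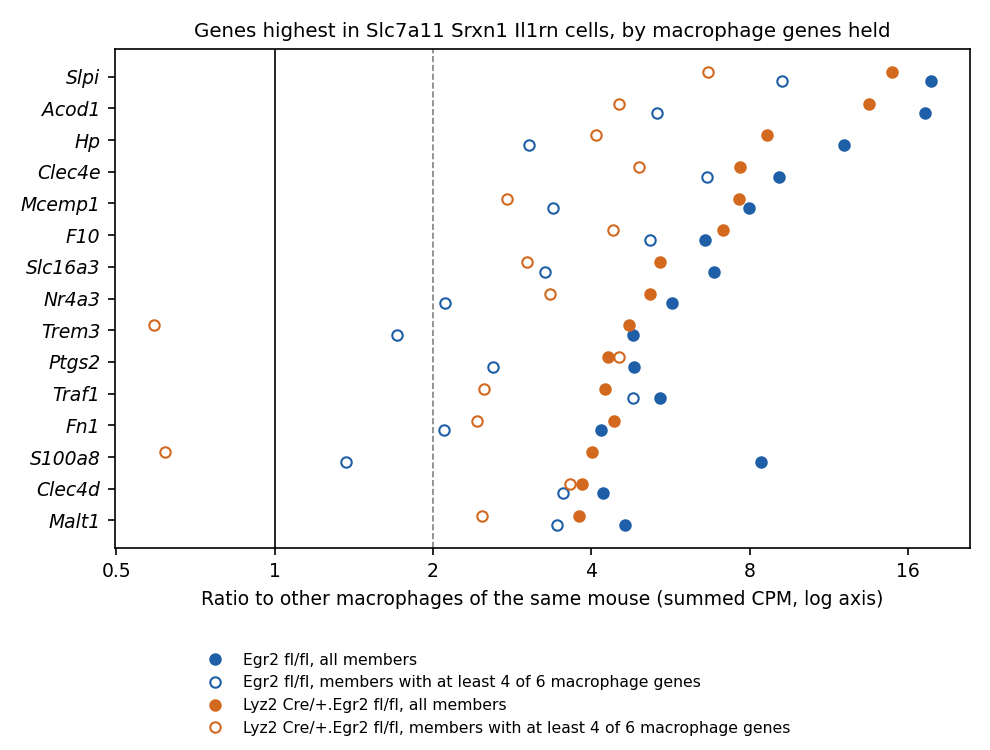
Ratio of summed CPM to other macrophages of the same mouse (x axis, log scale) for the 15 genes highest in Slc7a11 Srxn1 Il1rn cells, over all members (filled) and over members with at least 4 of the 6 macrophage genes (open); colours are the 2 mice, and the dashed line is 2 times. Most open points lie left of their filled ones but past 2, whereas S100a8 and Trem3 straddle 1.

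Some of the 15 also had high levels in the Vcan Ly6c2 cells. In the Vcan Ly6c2 cells Slpi stood at 373 and 335 CPM, Clec4e at 524 and 534 CPM and Hp at 980.0 and 1108 CPM. Members were above the Vcan Ly6c2 cells in both mice for 9 of the 15 genes, by 2 times or more for 4, and below them for 4. Acod1 was one of the 4 past 2 times, at 27.96 and 19.0 CPM in Vcan Ly6c2 cells. Of the 22 Nrf2 pathway genes 20 were above the Vcan Ly6c2 cells in both mice, 11 of them by 2 times or more, where 3.65% of all 8133 genes were past 2 times and 29.5% above 1. Of 15 chemokine genes 10 were above and 7 past 2 times. In the Vcan Ly6c2 cells Txnrd1 stood at 131 and 134 CPM, Osgin1 at 5.49 and 8.71 CPM and Hmox1 at 372 and 275 CPM.

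**Figure D4:**
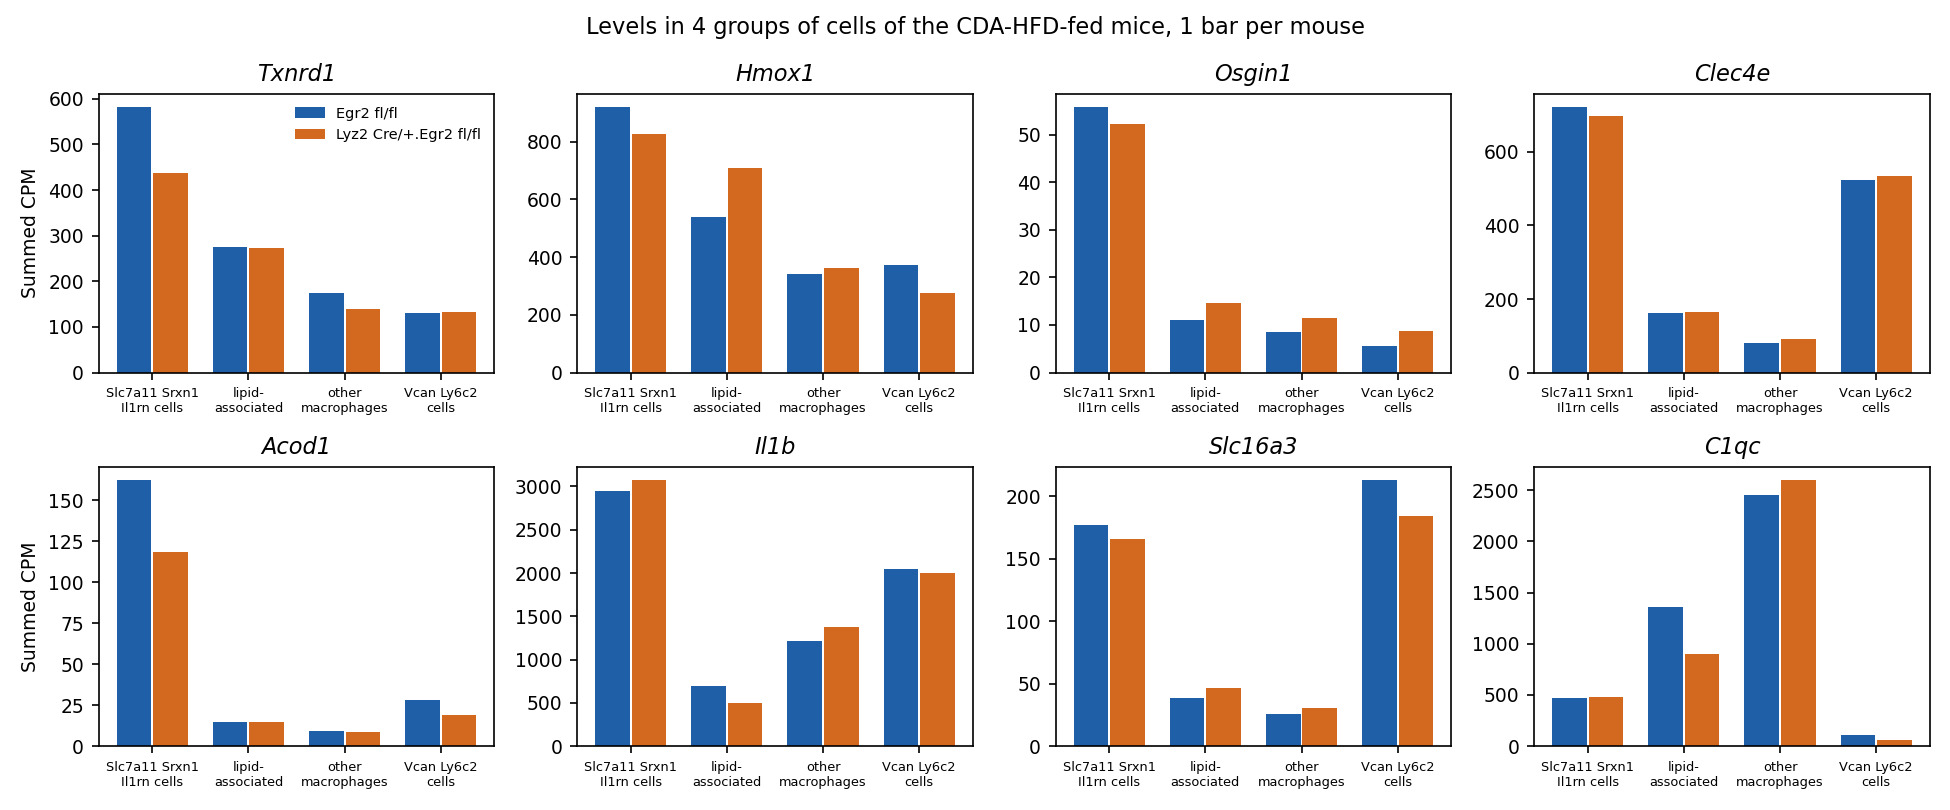
Summed CPM (y axis, from 0) of 8 genes in Slc7a11 Srxn1 Il1rn cells, lipid-associated macrophages, other macrophages and Vcan Ly6c2 cells of the CDA-HFD-fed mice, 1 bar per mouse; 324 lipid-associated cells are also counted among the other macrophages. Txnrd1, Hmox1, Osgin1, Clec4e, Acod1 and Il1b are highest in the Slc7a11 Srxn1 Il1rn cells, Slc16a3 is as high in the Vcan Ly6c2 cells, and C1qc is highest in other macrophages.

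Of the Ly6Chi monocyte list 6 of 7 genes compared were at least 2 times higher in members than in other macrophages and none was lower, with medians of 1.82 and 1.95 on the log2 scale. Over all genes 2.16% were higher and 4.48% lower. Plac8 stood at 1027 and 1619 CPM against 290 and 416 CPM, with no value between 0 and 6 in the table, so that low counts may be missing from both groups and its ratio may be affected. Ly6c2 stood at 180.0 and 357 CPM against 58.5 and 132 CPM, and Chil3 at 228 and 597 CPM against 62.0 and 95.3 CPM. The chemokine receptor gene Ccr2 was the exception, at 258 and 344 CPM against 415 and 434 CPM. In members with at least 4 of the 6 macrophage genes, 2 of the 6 genes compared were at least 2 times higher, where 0.781% of all genes were. Vcan was 0 in members by the rule. The 7 genes other than Vcan summed to 2103 and 3279 CPM in members, 929 and 1175 CPM in other macrophages and 12752.5 and 14315.4 CPM in Vcan Ly6c2 cells. The last group was chosen on Ly6c2, a gene of this list, so its higher sum is set in part by the choice.

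Among the C-type lectins, which sense microbial and damaged-cell glycans and lipids, 3 of the 14 compared were at least 2 times higher and 1 lower. Of all genes compared 2.16% were higher and 4.48% lower. Clec4e, the receptor Mincle, stood at 723 and 697 CPM against 79.5 and 90.8 CPM, 9.09 (8.61 to 9.60) and 7.68 (7.28 to 8.09) times, and was still 6.64 and 4.93 times higher in members with the macrophage genes. Clec4d, which pairs with Mincle, stood at 854 and 811 CPM against 203 and 211 CPM. Clec5a was 2.84 and 2.79 times higher, while Clec7a, the beta-glucan receptor Dectin-1, stood at 1.37 and 1.54 times. The mannose receptor Mrc1 was the one lower, at 33.2 and 25.1 CPM against 183 and 193 CPM. The shared signalling genes Fcer1g (0.984 and 0.979 times) and Syk (1.26 and 1.02 times) lay near 1.

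Of the interleukin-1 axis Il1b, the ligand, was higher in members, while the level of the antagonist gene Il1rn was fixed in part by the rule, which used it as a marker. Il1b stood at 2947 and 3072 CPM in members against 1220 and 1376 CPM, 2.42 (2.37 to 2.46) and 2.23 (2.19 to 2.28) times. Il1r2, the decoy receptor, stood at 70.4 and 44.6 CPM against 4.997 and 5.84 CPM, but at 11.6 and 16.1 CPM without the members that had a count for Ccr7, S100a9 or Retnlg. The interleukin-18 gene Il18 (0.394 and 0.437 times) and its binding protein Il18bp (0.141 and 0.128 times) were lower than in other macrophages. Those include Cd5l cells, which the rule barred from the members, and the effect of this on the ratios was not tested. After thinning, Il18 had a count in 6.64% and 9.06% of members, 15.7% and 17.3% of other macrophages and 5.88% and 10.2% of lipid-associated cells. For Il18bp these shares were 3.32% and 6.16%, 18.0% and 20.9%, and 7.12% and 4.65%, in the same order. Against lipid-associated cells neither gene had a common direction in these shares. Of the 10 genes compared 2 were at least 2 times higher and 2 lower, where 2.16% of all genes were higher and 4.48% lower. Within the members with macrophage genes no gene of this list was at least 2 times higher, and Il1b stood at 1.69 and 1.95 times. The inflammasome genes Nlrp3 (1.93 and 1.28 times), Casp1 (0.794 and 1.01 times) and Pycard (0.777 and 0.691 times) gave no common direction.

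The chemokine genes past 2 times were all higher in members. Of the 15 compared, 6 were at least 2 times higher and none at least 2 times lower, where 2.16% of all genes were higher and 4.48% lower. In both mice 11 lay above 1 and 2 below 1, with medians of 0.95 and 1.03 on the log2 scale. The neutrophil chemoattractant Cxcl3 stood at 74.3 and 59.7 CPM against 4.69 and 2.48 CPM, 15.8 and 24.1 times, and Ccl22, made by dendritic cells and macrophages, at 433 and 97.7 CPM against 27.3 and 4.18 CPM. Few cells held these transcripts: Cxcl3 had a count in 20 of 311 and 21 of 296 members, with a highest value of 10270 and 3436 CPM, and Ccl22 in 51 and 22 members. Cxcl14 was lower without reaching 2 times in Cre-negative cells, at 0.507 and 0.473 times. In members with the macrophage genes 4 of 15 were at least 2 times higher, where 0.781% of all genes were, with Cxcl3 at 23.1 and 47.8 times and Ccl22 at 7.11 and 3.54 times.

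Of 17 glycolysis genes 4 were at least 2 times higher, none lower and 15 above 1 in both mice, where 27.9% of all genes compared were above 1. In members with the macrophage genes 2 of the 17 were past 2 times and 12 above 1, where 24.0% of all genes were. Against lipid-associated cells 1 of 16 was past 2 times, where 2.70% of all genes were, and 13 lay above 1, where 32.2% were. With the macrophage genes required there, none of 15 was past 2 times, 7 lay above 1 and 4 below 1 in both mice. The list medians were then 0.0002 and 0.04 on the log2 scale. The lactate exporter Slc16a3 stood at 177 and 166 CPM against 25.9 and 30.7 CPM, 6.83 and 5.41 times, and the glucose importer Slc2a1 at 55.4 and 53.5 CPM against 19.2 and 14.9 CPM, 2.88 and 3.60 times. In the Vcan Ly6c2 cells Slc16a3 was as high, at 213 and 185 CPM, and of the 17 genes 9 were higher and 7 lower in members than in those cells. Arginine genes other than Ass1 gave no 2-fold difference among 6 compared. Asl, which follows Ass1 in the cycle, stood at 34.1 and 29.4 CPM against 32.1 and 32.7 CPM. Arg1 was low in members at 3.69 and 5.18 CPM, and Nos2 had 1 count in all members.

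The genes lower in members included Serpinb6a and Clec1b. Serpinb6a, an intracellular protease inhibitor, stood at 9.85 and 24.3 CPM against 171 and 254 CPM. The Kupffer cell lectin Clec1b stood at 9.03 and 11.0 CPM against 84.6 and 90.3 CPM, the prostaglandin enzymes Ptgs1 and Hpgds at 0.115 to 0.181 times, and Gpx3, a secreted peroxidase, at 4.93 and 9.95 CPM against 48.2 and 56.8 CPM. All 10 of the lowest genes were also below other macrophages in the members with the macrophage genes, 9 of them past 2 times; C1qc, which the choice of both groups used, was at 0.520 and 0.518 times. All 7 Kupffer cell genes compared and 6 of 10 macrophage genes were at least 2 times lower. Both follow in part from the choice of groups, since the rule barred Cd5l cells from the members while 314 of them were among the other macrophages. Against lipid-associated cells, which also had Cd5l at 0, neither of the 2 Kupffer cell genes compared was past 2 times in both mice. These 2 genes lay below 1 in both mice, with medians of -0.38 and -1.77 on the log2 scale. In members holding the macrophage genes themselves, 6 of 7 Kupffer cell genes and 1 of 10 macrophage genes were at least 2 times lower than in other macrophages. Csf1r, the receptor for the macrophage growth factor, differed little, at 794 and 852 CPM against 970.2 and 1066 CPM.

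Lysosome genes were lower for 3 of 15 and higher for none, where 4.48% of all genes were lower and 2.16% higher. The lower ones were the cathepsin genes Ctsd (0.344 and 0.463 times) and Ctsl (0.326 and 0.374 times) and the proton pump gene Atp6v0d2 (0.052 and 0.349 times). Atp6v0d2 had a count in only 5 of 311 and 2 of 296 members, so its ratios rest on few cells. Of 8 proliferation genes 6 were at least 2 times lower, where 4.48% of all genes were, with Stmn1 at 8.41 and 10.4 CPM against 58.7 and 88.1 CPM. Heat shock genes gave no 2-fold difference among 10 compared.

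The second comparison set the members beside the 546 lipid-associated cells, 325 and 221 in the 2 mice. Of these, 324 were also among the other macrophages of the first comparison, which held 760 of the 873 Tmem119 Olfml3 Pf4 cells and 314 of the 360 Cd5l cells as well, so the groups set beside the members overlap. Of 4819 genes compared, 130 (2.70%) were at least 2 times higher in members in both mice and 83 (1.72%) at least 2 times lower. Without the members that had a count for Ccr7, S100a9 or Retnlg 75 were higher and 81 lower, and with the macrophage genes required of the members 25 were higher and 50 lower of 3800 compared. The lipid-associated cells were chosen on 4 or more of the 7 genes that the members had to lack in part, and 8 of the 14 other lipid-associated genes compared were at least 2 times lower in members, none higher; with the macrophage genes required of the members 3 of 14 were lower. Trem2, the lipid receptor of these macrophages, stood at 341 and 336 CPM in members against 949 and 942 CPM, the lipoprotein lipase gene Lpl at 1095 and 1278 CPM against 2825 and 3107 CPM. Cd9, a tetraspanin gene, had no common direction, at 803 and 641 CPM against 742 and 693 CPM, and in cells thinned to 5000 counts it had a count in 73.1% and 65.2% of members against 85.1% and 84.2% of lipid-associated cells.

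Against lipid-associated cells the Nrf2 pathway set the members apart less. Of 22 genes compared only Osgin1 was at least 2 times higher in both mice, at 5.07 (3.98 to 6.51) and 3.57 (2.74 to 4.69) times, 13 lay above 1 and 5 below 1 in both mice, where 32.2% of all genes were above 1, and the list medians were 0.25 and 0.20 on the log2 scale against -0.05 and -0.05 for all genes. Txnrd1 was 2.11 and 1.60 times and Hmox1 1.71 and 1.17 times the level in lipid-associated cells. Prdx1 (0.914 and 0.855 times), the heme transporter gene Slc48a1 (0.652 and 0.595 times) and the ferritin light chain gene Ftl1 (0.785 and 0.771 times) were lower in members, and Ftl1 holds no value between 0 and 5 in the table. In members with the macrophage genes no Nrf2 gene of the 20 compared was past 2 times and 10 lay above 1; Osgin1, at 2.37 and 2.07 times, was there below the count limit and not among the 20.

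At least 2 times higher than in lipid-associated cells were 3 of 6 Ly6Chi monocyte genes compared, 2 of 7 of the interleukin-1 axis, 6 of 14 chemokine genes and 4 of 4 neutrophil genes, and none of these lists had a gene at least 2 times lower. Of all genes compared 2.70% were higher and 1.72% lower. With the macrophage genes required of the members the counts for these lists were 1 of 6, 1 of 5, 2 of 11 and 0 of 3, and 1 of the 3 neutrophil genes was lower. The shares over all genes were then 0.658% higher and 1.32% lower. Il1b stood at 2947 and 3072 CPM in members against 690.3 and 494 CPM in lipid-associated cells, 4.27 (4.14 to 4.40) and 6.22 (5.96 to 6.49) times, and Plac8 at 1027 and 1619 CPM against 106 and 141 CPM. Acod1 was 11.1 and 8.22 times higher, Clec4e 4.43 and 4.22 times, Marcksl1, an actin-regulating kinase substrate, 7.08 and 6.42 times, and the formyl peptide receptor gene Fpr2 7.21 and 5.88 times. Adgre4, an adhesion receptor gene of monocytes, stood at 179 and 241 CPM against 43.1 and 45.7 CPM, and Gpr84, a receptor for medium-chain fatty acids, at 66.7 and 61.4 CPM against 17.8 and 13.5 CPM. Of the 15 highest genes 14 were past 2 times without the members that had a count for Ccr7, S100a9 or Retnlg, and 11 were in members with the macrophage genes.

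Lower than in lipid-associated cells by at least 2 times were 4 of 15 lysosome genes, 4 of 12 lipid handling genes and 2 of 11 growth and matrix factor genes, where 1.72% of all genes were. Of the last list 1 gene was higher, 7 lay above 1 in both mice and the medians were 0.21 and 0.26 on the log2 scale. Among the 10 lowest genes, Ctsk, a collagen-cleaving cathepsin, stood at 4.10 and 4.77 CPM against 59.5 and 42.2 CPM, the fatty acid transporter Slc27a1 at 7.18 and 9.33 CPM against 57.8 and 66.7 CPM, and Igf1, a growth factor, at 130.1 and 185 CPM against 625 and 760.3 CPM. Timp2, an inhibitor of metalloproteinases, stood at 13.5 and 13.3 CPM against 48.4 and 48.7 CPM. The vesicle gene Syngr1 was nearly absent, with 0.616 and 5.18 CPM against 45.0 and 49.5 CPM. All 10 of the lowest genes were past 2 times with either restriction of the members.

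The third comparison set the members of the Cre-positive mouse beside those of the Cre-negative mouse. Egr2, the deleted gene, stood at 25.9 CPM against 78.2 CPM, a ratio of 0.331 (0.269 to 0.407), and over other macrophages at 7.91 against 54.1 CPM, a ratio of 0.146 (0.126 to 0.169). The ratio in members moved with the choice of members, to 0.156 (0.0958 to 0.242) with at least 5 markers and 0.408 (0.293 to 0.560) with the macrophage genes required. The counts are of 3′ reads, and whether these lie within the deleted part of the gene is not given in the sources used here. Of 2503 genes compared, 37 (1.48%) were at least 1.5 times higher and 47 (1.88%) at least 1.5 times lower in the Cre-positive mouse. Without the members that had a count for Ccr7, S100a9 or Retnlg, 24.8% and 14.9% of the members of the 2 mice, 33 were higher and 23 lower, 19 of these shared with the 47; with the macrophage genes required, 19 were higher and 15 lower of 839 compared. With 1 mouse per genotype, genotype and mouse cannot be told apart.

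Among the genes higher in the Cre-positive members, Chil3, a chitinase-like protein, stood at 228 CPM in the Cre-negative mouse and 597 CPM in the Cre-positive mouse, 2.62 times (2.44 to 2.81), and Ly6c2 at 180.0 and 357 CPM, 1.99 times (1.83 to 2.16). The complement receptor gene C3ar1 was 2.10 times higher, the chemokine gene Ccl2 2.39 times, and the fatty acid binding gene Fabp4 2.47 times. Of the Ly6Chi monocyte list 4 of 6 genes compared were at least 1.5 times higher and 1, Fn1, was lower at 0.578 times, where 1.48% of all genes were higher and 1.88% lower. C3ar1 and Fabp4 were lower in the Vcan Ly6c2 cells than in macrophage groups: C3ar1 stood at 29.7 and 53.3 CPM in Vcan Ly6c2 cells against 279 and 351 CPM in other macrophages, and Fabp4 at 24.6 and 39.2 CPM against 381 and 372 CPM in lipid-associated cells. Of the macrophage list 7 of 9 genes compared were above 1 and 1 was past 1.5 times, its sum being 10813 and 14477 CPM, and of the lysosome list 10 of 12 were above 1 and none past 1.5 times, where 56.8% of all genes compared were above 1. Chil3 (1.54 times) and Ly6c2 (2.25 times) were also higher over other macrophages, while Ccl2 (1.05 times) and Fabp4 (0.807 times) were not.

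Lower in the Cre-positive members were Ccl22, at 97.7 CPM against 433 CPM (0.226 times, 0.204 to 0.249), the interferon-induced chemokine gene Cxcl9 at 25.9 against 96.9 CPM (0.268 times), and Itgax, the CD11c gene, at 133 against 264 CPM (0.504 times, 0.457 to 0.554). The heat shock genes Hspa1a (0.243 times) and Hspa1b (0.271 times) were lower by as much in other macrophages (0.278 and 0.284 times). Ccl22, Cxcl9 and Itgax were lower in other macrophages too, at 0.153, 0.222 and 0.439 times. Ccr7 (0.492 times), Retnlg (0.349 times) and G0s2 (0.385 times) were lower in members as well. Cxcl9 (a count in 23 of 311 and 9 of 296 members), Ccr7 (24 and 11) and Retnlg (20 and 14) were compared because at least 5% of the members of 1 mouse held them, and for these 3 genes that was the mouse with the higher level alone, so their difference is set in part by that limit; of the 47 lower genes the other 44 were held by 5% of the members of both mice, as were all 37 higher genes. Ccr7 and Retnlg mark the other cells described above, which were 24.8% and 14.9% of the members, and the ratio of Retnlg was 2.58 in members with the macrophage genes and that of G0s2 1.41 in members with 5 or more markers.

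The markers and the Nrf2 pathway genes differed less between the mice than these. Slc7a11 stood at 0.778 times (0.701 to 0.863) in the Cre-positive members, Srxn1 at 0.786 times, Il1rn at 0.683 times and Ass1 at 0.791 times, as a description of genes that chose the cells. No Nrf2 pathway gene of the 21 compared was past 1.5 times, 17 were below 1 and 4 above, and the median was -0.16 on the log2 scale against 0.03 for all genes. Of 13 chemokine genes 1 was at least 1.5 times higher and 4 lower, and of 11 C-type lectin genes Clec4b1 was higher, at 1.93 times, where 1.48% of all genes were higher and 1.88% lower. The 6 MHC class II genes compared were below 1, none past 1.5 times, where 56.8% of all genes compared lay above 1. Of the 2491 genes compared in both cell groups, 20 (0.803%) were at least 1.5 times higher and 33 (1.32%) at least 1.5 times lower in other macrophages. They shared 8 genes with the 37 higher in members, 21.6% of the 37 and 40% of the 20, and 20 genes with the 41 lower, 48.8% of the 41 and 60.6% of the 33.

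**Figure D5:**
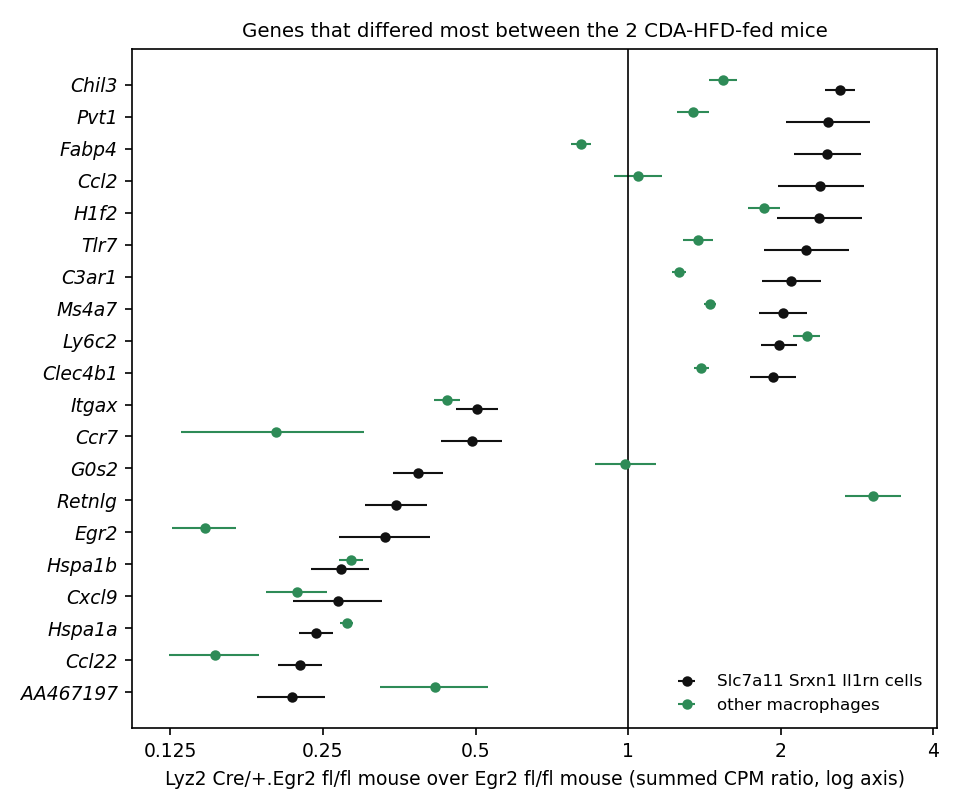
Ratio of summed CPM in the Cre-positive mouse to that in the Cre-negative mouse on CDA-HFD (x axis, log scale) for the 20 genes that differed most in Slc7a11 Srxn1 Il1rn cells (black) and the same genes in other macrophages (green); bars are 95% counting intervals. Hspa1a, Cxcl9 and Ccl22 lie on the same side of 1 in both cell groups, while Retnlg is at 0.349 in one and 3.03 in the other.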

How the data were processed

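Counts per gene and cell, and counts per hashtag and cell, were used as the authors deposited them from 3′ BD Rhapsody libraries made by the TAS-Seq protocol, with Seurat 4.1.1 and R 4.2.1 named per the labels and reads mapped to GRCm38. Of 16786 barcodes, 1392 that the authors called doublets (8.29%) were left out; doublets within a mouse were not removed. All 15394 other barcodes were also in the hashtag table, and 7 hashtag columns of no sample here were not used. The sources used here do not give whether reads or molecules were counted. In 34 genes no value lies between 0 and 5 in the deposited table, the lowest above 0 being 5 to 296 by gene, Apoe, C1qa to C1qc, Cd5l, Clec4f, Lyz2, Plac8, S100a9, Retnlg and Vsig4 among them. Cells over 25% mitochondrial counts (10) were left out.

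Counts were summed per mouse and group and given as CPM. Genes needed 500 summed counts; a difference was called at 2 times in both mice, or 1.5 times between genotypes for genes that 5% of the members of either mouse held. Intervals are Clopper-Pearson for shares, Newcombe for differences and exact binomial splits for ratios, and cover counting error. Neighbours came from 2000 variable genes and 30 principal components. Named genes were the 15 highest and 10 lowest by the smaller ratio (held by 20% of cells or more), the 10 highest and lowest between genotypes by interval bound, the rule's genes, and the extremes or members of set lists; Stmn1, Plac8, Ly6c2, Chil3, Trem2, Lpl, Cd9, Atf3 and similar examples outside it were picked after their values were seen. The members and lists were chosen with earlier results of these data known. The ratios were tested on simulated data. Python 3.11.15, scipy 1.17.1, scikit-learn 1.9.0 and edgeR 4.0.16 (size factors only) were used. Other marker minimums, count limits, scalings, thinning and subsets of the members were tried as alternatives. Promoters are from RefSeq.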

Additional observations from a re-analysis of the deposited data

Results flagged for a closer look

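For 2 genes the genotype ratio in the Slc7a11 Srxn1 Il1rn cells and in other macrophages lay past 1.5 times on opposite sides of 1. Retnlg, a neutrophil and monocyte resistin-like gene, stood at 0.349 times in members and 3.03 times in other macrophages. S100a9, the partner of S100a8 in calprotectin, stood at 0.558 times in members and 2.63 times in other macrophages. The direction in members depended on which members were read: with at least 5 markers Retnlg stood at 4.98 times and S100a9 at 12.1 times, and with the macrophage genes required Retnlg stood at 2.58 times, on the same side as in other macrophages. The difference was not tested, since each value rests on 1 mouse per genotype. A count for S100a9 or Retnlg was held by 55 members of the Cre-negative (Egr2 fl/fl) mouse and 33 of the Cre-positive mouse, so each gene alone came from no more cells than that.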

How the results depend on the processing

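The member share was 13.5% and 12.6% with 3 of 7 markers, 2.23% and 1.49% with 5, and 3.43% and 2.41% after thinning to 5000 counts, in the Cre-negative and Cre-positive mouse. With the markers and no other condition (chosen after seeing the data) it was 9.53% and 7.94%, a difference of -1.60 points; over cells without a Cd5l count (likewise) it was 5.43% and 4.97%. The difference kept its sign throughout. Counts of genes moved with the filter, since fewer counts per gene admit more genes. At 100 counts, 305 genes were higher and 796 lower than in other macrophages, 237 and 236 against lipid-associated cells, and 387 and 302 between genotypes; with no filter these were 1683 and 5523, 3009 and 3108, and 5269 and 4737. Members with at least 4 of 6 macrophage genes (an alternative chosen after seeing the data, with fewer cells) gave 61 genes higher than in other macrophages, 25 higher and 50 lower than in lipid-associated cells, 19 higher and 15 lower between genotypes, and an Egr2 ratio of 0.408. Members without a count for Ccr7, S100a9 and Retnlg (also chosen after seeing the data) gave 115 higher than in other macrophages, 75 higher than in lipid-associated cells and 23 lower between genotypes. At 5 markers 45 genes were higher than in lipid-associated cells and 22 between genotypes, with an Egr2 ratio of 0.156. Between genotypes the mean of the cells' own CPM gave 63 higher and 80 lower, thinning 87 higher, and cells with at least 90% own hashtag 28 lower; the cause was not tested. Requiring 5% of the members of both mice (chosen after seeing the data) left 37 higher and 44 lower. With the rule's genes kept, 28.5% of neighbours were members.

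Single genes that changed side are listed here. For members against other cells, the side was read only in the mouse whose ratio over all members lay nearer 1. With the macrophage genes required they were, against other macrophages, Ace (0.926), G0s2 (0.341), S100a8 (0.617), S100a9 (0) and Trem3 (0.589). Of these, S100a8 and Trem3 kept their side in the Cre-negative mouse. Against lipid-associated cells they were G0s2 (0.824), Hp (0.937), Lsp1 (0.949), S100a8 (0.916), S100a9 (0) and Slpi (0.967). Without the Ccr7, S100a9 and Retnlg cells G0s2 (0.569) and S100a8 (0.812) changed side against other macrophages. Between genotypes G0s2 (1.41), Il1r2 (2.52), Retnlg (4.98) and S100a9 (12.1) changed side at 5 markers, Nr4a3 (1.05) and Retnlg (2.58) with the macrophage genes required, and Il1r2 (1.39) without the Ccr7, S100a9 and Retnlg cells. No paired analysis was possible because each group is 1 mouse. Leaving out a mouse leaves no comparison of its genotype.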
